A study of Mus musculus with 12 samples.

Results

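The enzymes and protein complexes that write, erase, read and reposition histones were followed through the conversion of mouse epiblast cells into ES-like cells. The members are all genes of 12 symbol families (Kdm, Kmt, Hdac, Sirt, Kat, Setd, Smarc, Chd, Cbx, Ezh, Prmt and Phc) together with Jarid2, Eed, Suz12, Ring1, Rnf2, Bmi1, Ehmt1 and Ehmt2, wherever a probe of the array carries that gene's symbol alone (no probe was so annotated for Ehmt1). This gave 81 probes for 75 of the 13840 named genes, after 4 katanin probes that share the letters Kat had been left out. Of the 81 probes, 75 could be tested because each array of 1 group or more detected them, and they stand for 69 genes. Of these 75, 6 were fully detected in 1 group only: Hdac11 and Smarca2 in cEpi, Setd5 at passage 4, and Ezh1, Prmt8 and Setd7 at passage 24. A difference in favour of that group was thus favoured by the choice of tested probes and is given for these genes as a description. In the list, 5 genes had more than 1 probe: Bmi1, Chd4, Kdm2b, Smarca5 and Smarce1.

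The study measured 12 one-colour arrays, 3 in each of 4 groups of cultured mouse cells. ES cells, the reference, carry no further description of their line in the labels. cEpi is cultured epiblast, dissected by shape from embryos of embryonic day 5.5 to 7.5 and dissociated. The rEpiES cells, sampled at passage 4 and at passage 24, came from such epiblast kept in serum and LIF on mitomycin-treated fibroblasts, where rare cells switched on an Oct4 reporter and were picked and expanded as green colonies. The embryos had 129/Sv or ROSA 129/Sv mothers and fathers carrying the Oct4-ΔPE-EGFP transgene, a reporter whose distal enhancer is active in ES cells and silent in epiblast. The labels give neither the culture of the cEpi cells nor the number of lines behind the 3 arrays of a group, so the p-values rest on array-to-array spread, which may be technical.

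Levels below are log2 values that the submitters had quantile-normalised, and changes are log2 differences of group means ± standard error. A change was called where the Benjamini-Hochberg adjusted p of a limma fit over all 15235 tested probes was under 0.05. Where no array of the dimmer group detected a probe, the change is given as a fold of at least some value. Such a fold compares mean signals and is no strict minimum. ES arrays were the least alike: the median SD of a tested probe was 0.24 in ES, 0.0869 in cEpi, 0.103 at passage 4 and 0.113 at passage 24. The standard error pooled the spread of all groups, so that of ES entered every comparison. ES arrays also had the fewest detected probes, 12061 to 13827, against 14329 to 16537 on the other arrays. The files of cEpi and passage 4 share a layout, as do those of ES and passage 24. Passage 4 minus cEpi and passage 24 minus ES therefore lie within a layout, and in the other comparisons layout and group cannot be told apart.

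As a check of the labels, 7 of 7 tested naive ES markers were lower in cEpi than in ES and higher in both rEpiES groups than in cEpi. Of 7 post-implantation epiblast markers 5 were higher in cEpi than in ES and 2 were lower. Fibroblast genes were also higher in cEpi: 10 of 11 tested feeder fibroblast markers were called higher than in ES, and 10 of 11 were lower at passage 4 than in cEpi. Their mean log2 level over 12 genes was 15.73 to 15.77 on cEpi arrays, 12.94 to 13.32 on ES arrays, 13.59 to 13.72 at passage 4 and 12.99 to 13.12 at passage 24. None of the 12 went undetected in cEpi, 2 did in ES and 1 in each rEpiES group. All 5 tested endoderm markers were higher in cEpi as well. The part of fibroblast or endoderm RNA in the members' differences was not tested, and in bulk RNA fewer cells of a type and less RNA per cell cannot be told apart.

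Histone marks are set by enzymes that often work in multi-subunit complexes. Polycomb repressive complex 2 (PRC2) methylates lysine 27 of histone H3, and Polycomb repressive complex 1 (PRC1) binds that mark and ubiquitylates histone H2A, and together they hold developmental genes silent in ES cells. Acetyltransferases and deacetylases add and remove acetyl groups, methyltransferases and demethylases do so for methyl groups, and the ATP-driven SWI/SNF, ISWI and CHD remodellers slide or evict nucleosomes. ES cells are known for their own SWI/SNF composition, built on the ATPase Smarca4 (BRG1) and the scaffold Smarcc1 (BAF155), whereas many differentiated cells use Smarca2 (BRM) and Smarcc2 (BAF170).

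Chromatin members were more often lower than higher in cultured epiblast, and more often higher than lower in both rEpiES groups relative to it, on the quantile-normalised values; median scaling turned the balance in cEpi minus ES and passage 4 minus cEpi, and unscaled signal turned all 3. In cEpi against ES, 33 of 75 tested members were lower and 22 higher (44% and 29.3%), where 29.6% of all tested probes were called lower and 36.6% higher. Against cEpi, passage 4 had 34 members higher and 23 lower (45.3% and 30.7%), beside 28.2% and 28.1% of all tested probes. Passage 24 against cEpi had 35 higher and 19 lower (46.7% and 25.3%), beside 33.3% and 32.9%.

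Against ES, passage 4 had 18 members higher and 28 lower (24% and 37.3%), where 29.3% and 26% of all tested probes were called. Passage 24 against ES had 30 higher and 27 lower (40% and 36%), beside 30.6% and 29%. Between passages, 22 members were higher and 10 lower at passage 24 (29.3% and 13.3%), beside 17.2% and 18.9%. The counts between passages were unstable: they became 16 and 6 under median scaling, 11 and 5 unscaled, 13 and 6 without a detection filter and 34 and 17 with array weights, and 14 were higher without passage 4 replicate 2. Shares of all tested probes are not given for these settings. Of the 75 members, 68 (90.7%) differed somewhere among the 4 groups by the F test, beside 82.6% of all tested probes. The counts by family given below rest on 2 to 14 tested probes each. They are descriptions, to be read beside the shares of all tested probes given for each comparison above.

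**Figure D1:**
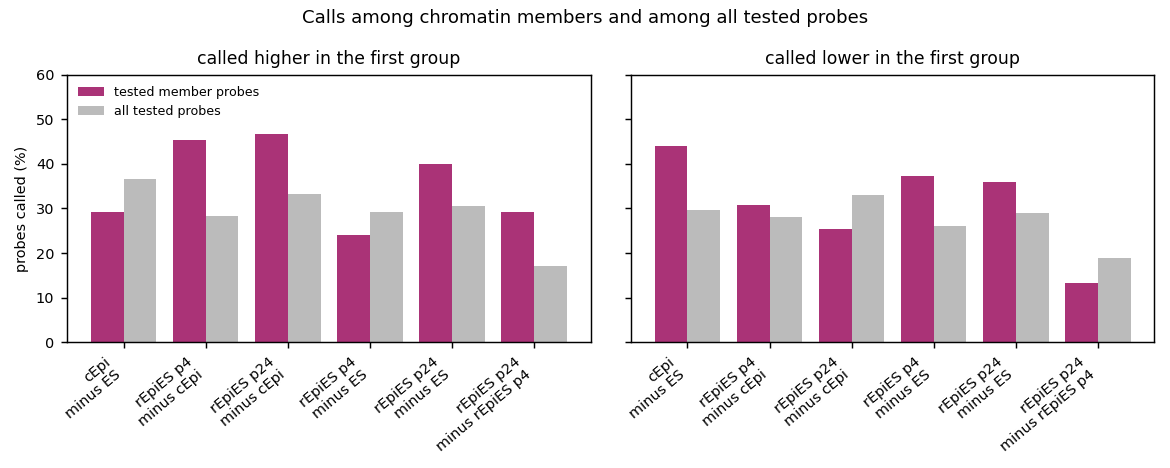
Percentage of probes called higher (left) and lower (right) in the first-named group of each comparison, for the 75 tested members (purple) and all 15235 tested probes (grey), on the quantile-normalised values. In cEpi minus ES 44% of members against 29.6% of all probes were lower, and in both rEpiES groups minus cEpi a larger share of members than of all probes was higher. Under median scaling the balance turned for members in cEpi minus ES (35 higher, 18 lower) and in passage 4 minus cEpi (19 higher, 23 lower). The share of all probes under that scaling is not shown.

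The direction of that balance depended on how arrays were scaled. In each comparison with cEpi the members' median nonetheless kept its side of the median over all tested probes. The median-scaled and unscaled log2 signals differ by a constant per array. The gap between members and all probes is therefore the same in both by arithmetic, and their agreement is no support. On the submitters' values the median change of members was -0.14 in cEpi minus ES against 0.145 for all tested probes, 0.20 against -0.02 in passage 4 minus cEpi, and 0.37 against 0.01 in passage 24 minus cEpi. When each array's raw signal was scaled to a common median, the same 3 medians were 0.31 against 0.69, -0.07 against -0.25, and 0.25 against -0.18. With the raw signal left unscaled they were 0.44 against 0.81, -0.27 against -0.45, and 0.06 against -0.37. Called members then split into 35 higher and 18 lower in cEpi minus ES under median scaling and 37 and 14 unscaled, and in passage 4 minus cEpi into 19 and 23 and into 14 and 26. For passage 4 minus ES the median scaling gave 30 higher and 10 lower and the unscaled signal 22 and 11. For passage 24 minus ES these were 34 and 12 and 32 and 12. Passage 24 minus cEpi gave 28 and 22 and 20 and 24. The shares of all tested probes called under these scalings are not given here. The counts are therefore no result about the members, since all tested probes shifted too. Relative to the submitters' values, the median over all tested probes moved under the median scaling and the unscaled signal by 0.54 and 0.67 in cEpi minus ES, by -0.23 and -0.44 in passage 4 minus cEpi, by -0.19 and -0.38 in passage 24 minus cEpi, by 0.30 and 0.23 in passage 4 minus ES, by 0.33 and 0.27 in passage 24 minus ES, and by 0.04 and 0.05 between passages. Single members moved further, by up to 0.96 in cEpi minus ES without scaling, and the changes of sign are given gene by gene.

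cEpi differed from each of the 3 other groups at 38 of the 75 tested probes (50.7%), beside 39.8% of all tested probes. Of these, 23 (30.7%, beside 16.5%) were lower in cEpi than in ES, passage 4 and passage 24, and 11 (14.7%, beside 18%) were higher than in all 3. All calls of 10 of the 11 higher ones held under both other scalings (Bmi1 probe 2, Cbx2, Hdac5, Hdac6, Kat14, Prmt2, Ring1, Sirt2, Smarca2 and Smarce1 probe 1, but not Hdac3). All calls of 5 of the 23 lower ones did so, namely Jarid2, Eed, Phc1, Smarca4 and Chd4 probe 3. The remaining 18 probes of that set (Suz12, Phc3, Cbx3, Cbx5, Cbx6, Chd1l, Chd4 probe 1, Chd8, Kat2b, Kdm2b probe 2, Kdm6a, Kmt5a, Prmt3, Setd4, Sirt1, Smarca5 probe 1, Smarcc1 and Smarcd2) lost at least 1 call under 1 of these scalings. The other 4 probes, Ezh2, Hdac1, Kat7 and Kdm2b probe 1, were called in all 3 comparisons with cEpi between the levels of the other groups. Of these 4, only Kat7 kept all its calls under both other scalings. In all 3 comparisons both other scalings moved the median over all tested probes towards cEpi. They thus favoured calls higher in cEpi and worked against calls lower there, so the sets were not tested alike. Smarca2 was tested through cEpi alone.

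**Figure D2:**
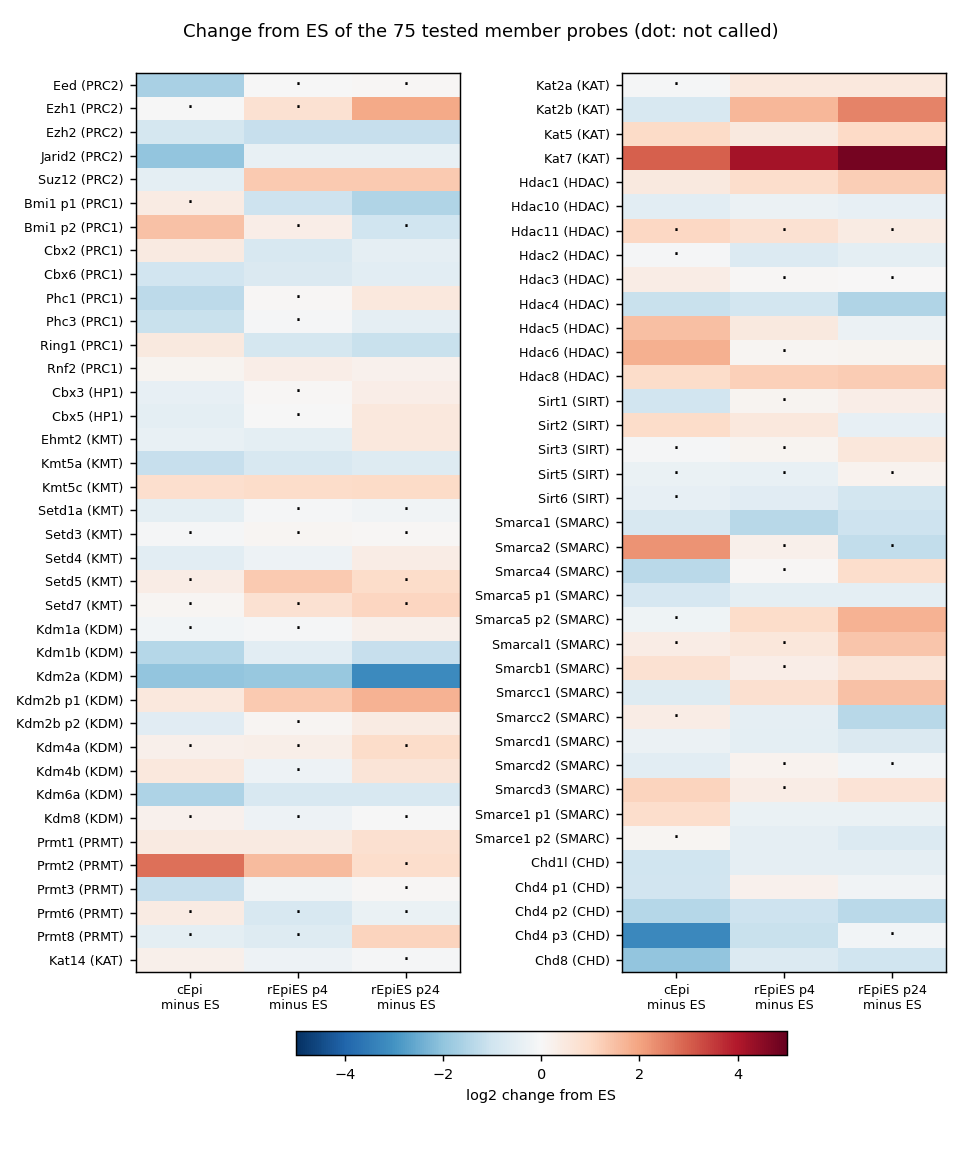
Log2 change from ES of each of the 75 tested member probes in cEpi, rEpiES passage 4 and rEpiES passage 24 (colour scale from -5 to 5, quantile-normalised values, dot: not called, p1 to p3: probes of one gene). Jarid2, Eed, Phc1, Chd8 and Smarca4 are blue in cEpi and paler or red in rEpiES, Kat7 is red in all 3 columns and Kdm2a blue in all 3; pale cells can change sign under another scaling.

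Within PRC2, the core subunit Eed and the accessory subunit Jarid2 were lower in cultured epiblast than in ES cells and higher in both rEpiES groups than in epiblast, while the methyltransferase Ezh2 was lower still in rEpiES cells. Of 5 tested PRC2 members 4 were lower in cEpi than in ES and none higher (median -0.87), although the change of Suz12 turned sign under both other scalings. Passage 4 had 3 higher and 1 lower than cEpi (median 1.61), and passage 24 had 4 higher and 1 lower (median 1.66), one of the 4 being Ezh1, which was fully detected at passage 24 alone. No PRC2 member was called between the passages.

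Jarid2, an accessory subunit that helps bring PRC2 to its targets, read 16.11, 16.14 and 16.22 on the ES arrays, 14.13, 14.15 and 14.27 on the cEpi arrays, 15.84, 15.72 and 15.85 at passage 4 and 15.78, 15.82 and 15.81 at passage 24. Every cEpi array lay below every other array, and the rEpiES arrays lay just below the ES arrays without overlap. Its change was -1.97 ± 0.06 (adjusted p = 7.48e-09) in cEpi minus ES, 1.62 ± 0.06 (adjusted p = 3.63e-08) in passage 4 minus cEpi and -0.36 ± 0.06 (adjusted p = 0.00114) in passage 4 minus ES. The passages were not called different (adjusted p = 0.998).

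Eed, the subunit that reads trimethylated lysine 27 and stimulates the enzyme, read 16.53, 16.63 and 16.61 on the ES arrays, 14.95, 14.88 and 15.08 on the cEpi arrays, 16.52, 16.57 and 16.64 at passage 4 and 16.57, 16.69 and 16.63 at passage 24. The ES and rEpiES arrays overlapped and the 3 cEpi arrays lay below them all. The changes were -1.62 ± 0.07 (adjusted p = 4.5e-08) in cEpi minus ES, 1.61 ± 0.07 (adjusted p = 6.95e-08) in passage 4 minus cEpi and 1.66 ± 0.07 (adjusted p = 2.61e-08) in passage 24 minus cEpi. Against ES, passage 4 changed by -0.01 ± 0.07 and passage 24 by 0.04 ± 0.07, neither called (adjusted p = 0.88 and 0.66).

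Suz12, the subunit on which the core complex assembles, went beyond the ES level. Its arrays read 14.09, 13.92 and 13.93 on the ES arrays, 13.54, 13.43 and 13.48 on the cEpi arrays, 15.19, 15.26 and 15.46 at passage 4 and 15.28, 15.41 and 15.16 at passage 24. All 6 rEpiES arrays lay above all ES and cEpi arrays. Passage 4 exceeded cEpi by 1.82 ± 0.10 (adjusted p = 2.14e-07) and ES by 1.33 ± 0.10 (adjusted p = 2.76e-06), and passage 24 exceeded ES by 1.31 ± 0.10 (adjusted p = 1.87e-06). The cEpi change of -0.50 ± 0.10 was called on the submitters' values but was 0.19 under median scaling and 0.32 unscaled.

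Ezh2, the main methyltransferase of PRC2 in ES cells, read 16.74, 16.68 and 16.75 on the ES arrays, 15.84, 15.77 and 15.96 on the cEpi arrays, 15.49, 15.56 and 15.61 at passage 4 and 15.57, 15.69 and 15.49 at passage 24. The ES arrays were the highest, the cEpi arrays came next and the rEpiES arrays were lowest, with no overlap between ES, cEpi and the rEpiES arrays. It was lower than in ES by -0.87 ± 0.07 (adjusted p = 4.2e-06) in cEpi, -1.17 ± 0.07 (adjusted p = 1.34e-06) at passage 4 and -1.14 ± 0.07 (adjusted p = 9.67e-07) at passage 24. Passage 4 and passage 24 were also lower than cEpi, by -0.30 ± 0.07 and -0.27 ± 0.07. Under each of the other scalings Ezh2 lost at least 1 of its calls in the comparisons with cEpi. Ezh1, the alternative methyltransferase, was dim: it was detected on 1 ES array, no cEpi array, 2 arrays of passage 4 and 3 of passage 24. Its arrays read 9.99, 6.56 and 8.84 on the ES arrays, 8.23, 8.57 and 8.49 on the cEpi arrays, 9.35, 9.07 and 9.27 at passage 4 and 10.11, 10.68 and 10.24 at passage 24. Passage 24 exceeded cEpi at least 3.77-fold (adjusted p = 0.0285), a bound on mean signals that is no strict minimum, and exceeded ES by 1.88 ± 0.67 (adjusted p = 0.0339). Both are descriptions, since passage 24 alone brought Ezh1 into the test. Both calls were lost without any 1 of the 3 passage 24 arrays, and the first also without any 1 of the cEpi arrays.

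**Figure D3:**
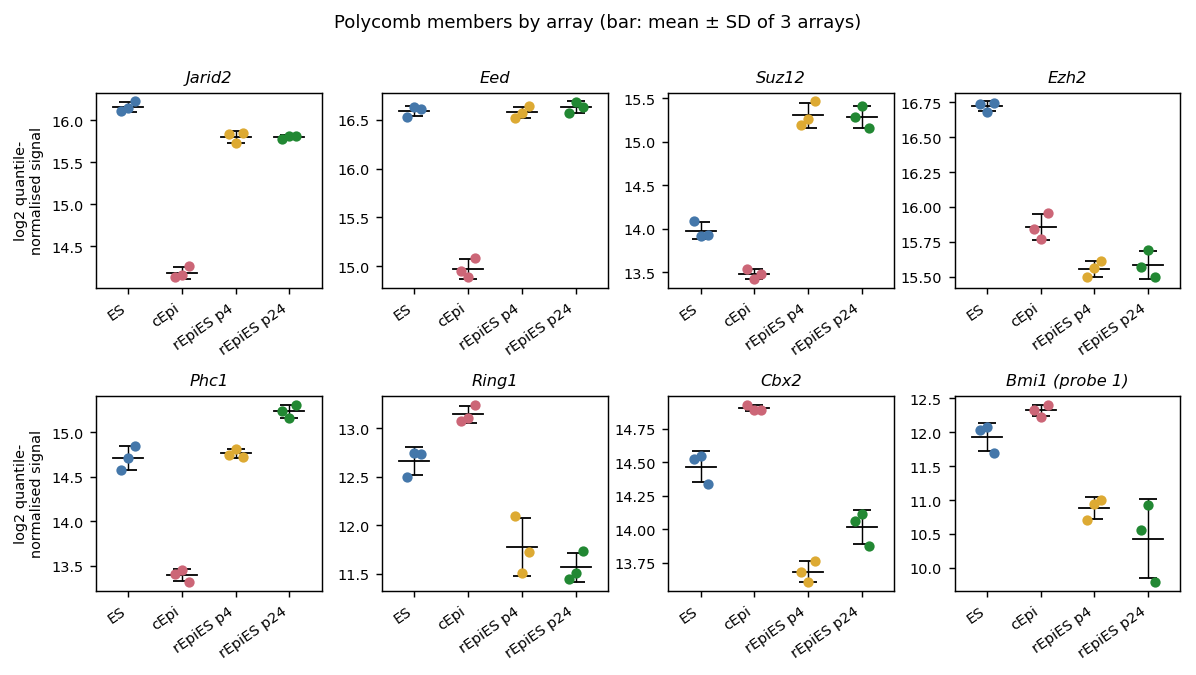
Log2 quantile-normalised signal of 8 Polycomb probes on each of the 12 arrays (points), with mean ± SD of 3 arrays (bars); vertical scales differ between panels. Jarid2, Eed and Phc1 are lowest in cEpi, Suz12 is highest in rEpiES, Ezh2 falls from ES (16.68 to 16.75) to rEpiES (15.49 to 15.69), and Ring1, Cbx2 and Bmi1 are highest in cEpi and lowest in rEpiES.

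PRC1 subunits moved in opposite directions. Of the 8 tested PRC1 probes 4 were higher and 3 lower in cEpi minus ES (median 0.27), passage 4 minus cEpi had 4 higher and 4 lower, and passage 24 minus cEpi 3 higher and 4 lower. Those low in cEpi were the Polyhomeotic proteins Phc1 and Phc3 and the reader Cbx6. Those high in cEpi were the E3 ligase subunit Ring1, the reader Cbx2 and, by the dimmer of its 2 probes, Bmi1, a partner that activates the ligase. Rnf2, the main catalytic ligase of PRC1, stayed within a narrow range.

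Phc1 read 14.58, 14.71 and 14.84 on the ES arrays, 13.41, 13.46 and 13.32 on the cEpi arrays, 14.75, 14.82 and 14.72 at passage 4 and 15.25, 15.17 and 15.31 at passage 24. The cEpi arrays were lowest and the passage 24 arrays highest, with no overlap of either with another group, while ES and passage 4 overlapped. Changes were -1.32 ± 0.08 (adjusted p = 3.74e-07) in cEpi minus ES, 1.37 ± 0.08 (adjusted p = 4.64e-07) in passage 4 minus cEpi, 0.53 ± 0.08 (adjusted p = 0.000282) in passage 24 minus ES and 0.48 ± 0.08 (adjusted p = 0.00131) in passage 24 minus passage 4. Phc3 followed the same order in cEpi, with -1.13 ± 0.15 (adjusted p = 0.000101) against ES and 1.08 ± 0.15 (adjusted p = 0.00018) in passage 4 minus cEpi, and was -0.47 ± 0.15 in passage 24 minus ES, a call lost without ES replicate 1 or passage 24 replicate 1 or 2. Cbx6 was -0.95 ± 0.08 (adjusted p = 2.39e-06) in cEpi minus ES and stayed below ES at passage 4 (-0.70 ± 0.08) and passage 24 (-0.53 ± 0.08). Its change of 0.24 ± 0.08 in passage 4 minus cEpi was -0.01 under median scaling and -0.21 unscaled, and was lost without passage 4 replicate 1 or 3 or cEpi replicate 2 or 3.

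Ring1 read 12.49, 12.74 and 12.74 on the ES arrays, 13.08, 13.11 and 13.24 on the cEpi arrays, 12.09, 11.51 and 11.72 at passage 4 and 11.45, 11.51 and 11.73 at passage 24. The cEpi arrays lay above the ES arrays and those above all rEpiES arrays. Passage 4 was -1.37 ± 0.15 (adjusted p = 2.86e-05) against cEpi and -0.88 ± 0.15 (adjusted p = 0.000626) against ES, and passage 24 -1.58 ± 0.15 (adjusted p = 6.55e-06) and -1.09 ± 0.15 (adjusted p = 0.000124). The cEpi excess over ES, 0.48 ± 0.15, was lost without ES replicate 1 or cEpi replicate 3.

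Cbx2, which compacts nucleosomes and recognises methylated lysine 27, read 14.52, 14.55 and 14.33 on the ES arrays, 14.93, 14.89 and 14.89 on the cEpi arrays, 13.68, 13.60 and 13.76 at passage 4 and 14.06, 14.12 and 13.87 at passage 24. The 4 groups did not overlap. It was 0.44 ± 0.09 (adjusted p = 0.00124) in cEpi minus ES, -1.22 ± 0.09 (adjusted p = 1.48e-06) in passage 4 minus cEpi and -0.79 ± 0.09 (adjusted p = 3.82e-05) in passage 4 minus ES. At passage 24 it was 0.33 ± 0.09 above passage 4, a call lost without the second array of either passage, and -0.45 ± 0.09 against ES.

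Both Bmi1 probes were lower in rEpiES than in cEpi. Probe 386647 read 12.03, 12.08 and 11.69 on the ES arrays, 12.33, 12.23 and 12.41 on the cEpi arrays, 10.70, 10.95 and 11.00 at passage 4 and 10.56, 10.93 and 9.79 at passage 24, with every rEpiES array below every cEpi and ES array. It was 0.39 ± 0.25 in cEpi minus ES (adjusted p = 0.187, not called), -1.44 ± 0.25 (adjusted p = 0.000682) in passage 4 minus cEpi and -1.50 ± 0.25 (adjusted p = 0.000474) in passage 24 minus ES. Probe 730122 was dimmer and was detected on 2 ES arrays and 1 passage 24 array. It was 1.47 ± 0.43 (adjusted p = 0.0121) in cEpi minus ES and -2.47 ± 0.43 (adjusted p = 0.000543) in passage 24 minus cEpi. Its changes of -1.15 ± 0.43 in passage 4 minus cEpi and -1.32 ± 0.43 between passages were each lost on leaving out any of 8 single arrays.

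Rnf2 read 14.29, 14.38 and 14.29 on the ES arrays, 14.49, 14.47 and 14.45 on the cEpi arrays, 14.67, 14.68 and 14.62 at passage 4 and 14.54, 14.50 and 14.59 at passage 24. The rEpiES arrays lay slightly above the others. Its changes against ES were 0.34 ± 0.06 (adjusted p = 0.000588) at passage 4 and 0.22 ± 0.06 (adjusted p = 0.00642) at passage 24. In cEpi minus ES it was 0.15 ± 0.06, lost on leaving out 10 of the 12 arrays in turn, and its 0.19 ± 0.06 in passage 4 minus cEpi was -0.08 under median scaling and -0.29 unscaled and was lost without passage 4 replicate 1 or 2 or cEpi replicate 3. Cbx8 had no tested probe.

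The HP1 proteins, which bind methylated lysine 9 and mark heterochromatin, were represented by Cbx5 (HP1 alpha) and Cbx3 (HP1 gamma). Cbx5 read 14.15, 14.19 and 13.93 on the ES arrays, 13.67, 13.60 and 13.48 on the cEpi arrays, 14.05, 14.05 and 14.06 at passage 4 and 14.60, 14.67 and 14.60 at passage 24, with the passage 24 arrays above all others. It was 1.04 ± 0.08 (adjusted p = 1.66e-06) in passage 24 minus cEpi, 0.53 ± 0.08 (adjusted p = 0.000264) in passage 24 minus ES and 0.57 ± 0.08 (adjusted p = 0.000466) in passage 24 minus passage 4. Cbx3 was 0.74 ± 0.10 (adjusted p = 0.000134) in passage 24 minus cEpi and 0.34 ± 0.10 (adjusted p = 0.0186) in passage 24 minus ES, the latter lost without passage 24 replicate 3. Both were lower in cEpi than in ES on the submitters' values, by -0.51 ± 0.08 and -0.40 ± 0.10, but read 0.17 and 0.30 under median scaling and 0.29 and 0.43 unscaled. Their passage 4 minus cEpi changes of 0.47 ± 0.08 and 0.47 ± 0.10 were -0.03 and -0.05 unscaled.

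The SWI/SNF paralogs moved in opposite directions. The ATPase Smarca4 and the scaffold Smarcc1 were low in cEpi and highest at passage 24. The ATPase Smarca2 and the scaffold Smarcc2 were highest in cEpi, and Smarcc2 was lowest at passage 24. Smarca2 was tested because of cEpi alone, so its excess there is a description, and Smarcc2 was not called between cEpi and ES. The cEpi minus ES order of Smarcc1 turned under both other scalings. Over the 14 tested Smarc probes the counts were 4 higher and 6 lower in cEpi minus ES, 5 and 7 in passage 4 minus cEpi, 6 and 5 in passage 24 minus cEpi, and 6 and 6 in passage 24 minus ES. The RefSeq promoter windows of Smarca4, Smarcc1, Smarca2 and Smarcc2 are shown, from 250 bases before to 50 bases after the annotated start (GRCm38.p6, all on the plus strand, 5′ to 3′, matches of the GC box GGGCGG on either strand in capitals). They lie at chr9:21615919-21616218, chr9:110131774-110132073, chr19:26604910-26605209 and chr10:128458986-128459285.
Smarca4: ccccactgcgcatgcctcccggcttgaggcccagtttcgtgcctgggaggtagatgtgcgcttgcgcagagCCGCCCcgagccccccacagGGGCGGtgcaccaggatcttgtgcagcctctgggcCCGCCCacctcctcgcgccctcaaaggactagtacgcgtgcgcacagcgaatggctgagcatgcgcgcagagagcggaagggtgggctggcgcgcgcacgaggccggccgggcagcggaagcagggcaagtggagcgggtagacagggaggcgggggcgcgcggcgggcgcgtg
Smarcc1: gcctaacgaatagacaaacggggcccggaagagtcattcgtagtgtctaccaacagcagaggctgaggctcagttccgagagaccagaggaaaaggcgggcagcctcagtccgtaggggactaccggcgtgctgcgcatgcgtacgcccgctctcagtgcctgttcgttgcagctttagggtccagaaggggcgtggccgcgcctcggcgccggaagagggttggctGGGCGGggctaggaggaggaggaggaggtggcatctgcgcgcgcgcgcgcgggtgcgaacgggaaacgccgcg
Smarca2: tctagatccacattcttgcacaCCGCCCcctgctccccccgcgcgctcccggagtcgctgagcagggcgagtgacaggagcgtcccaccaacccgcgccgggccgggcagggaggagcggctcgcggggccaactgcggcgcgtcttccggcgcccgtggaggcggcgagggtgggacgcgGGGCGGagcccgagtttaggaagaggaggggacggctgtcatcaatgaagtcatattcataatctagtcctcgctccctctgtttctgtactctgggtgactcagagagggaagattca
Smarcc2: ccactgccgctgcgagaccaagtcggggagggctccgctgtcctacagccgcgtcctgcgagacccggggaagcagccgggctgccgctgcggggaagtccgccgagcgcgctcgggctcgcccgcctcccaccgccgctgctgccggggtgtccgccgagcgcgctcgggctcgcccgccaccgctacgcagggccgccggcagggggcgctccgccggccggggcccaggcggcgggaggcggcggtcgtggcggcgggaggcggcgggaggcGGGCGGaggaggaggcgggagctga
All 4 windows held a GC box: 3 matches in Smarca4, 2 in Smarca2 and 1 in each of Smarcc1 and Smarcc2, and 35.7% of all 32851 windows held at least 1. None of the 4 held the CCAAT box (37.4% of all windows), the E box CACGTG (7.15%) or the octamer ATTTGCAT (1.74%) on either strand, so no match overlapped one of another motif. CpG dinucleotides numbered 33, 33, 29 and 48 in the order printed, against a median of 7 over all windows.

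Smarca4 read 13.84, 13.76 and 13.10 on the ES arrays, 12.28, 12.27 and 12.09 on the cEpi arrays, 13.69, 13.66 and 13.58 at passage 4 and 14.48, 14.37 and 14.49 at passage 24. The cEpi arrays were lowest and the passage 24 arrays highest, and ES overlapped passage 4. Changes were -1.35 ± 0.17 (adjusted p = 5.76e-05) in cEpi minus ES, 1.43 ± 0.17 (adjusted p = 5.34e-05) in passage 4 minus cEpi, 0.80 ± 0.17 (adjusted p = 0.00445) between passages and 0.88 ± 0.17 (adjusted p = 0.00124) in passage 24 minus ES.

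Smarcc1 read 12.63, 12.84 and 12.11 on the ES arrays, 11.73, 11.87 and 12.03 on the cEpi arrays, 13.28, 13.21 and 13.47 at passage 4 and 14.03, 14.04 and 13.98 at passage 24. The 4 groups did not overlap, in the ascending order cEpi, ES, passage 4, passage 24. It was 1.44 ± 0.17 (adjusted p = 4.73e-05) in passage 4 minus cEpi, 0.79 ± 0.17 (adjusted p = 0.00266) in passage 4 minus ES, 1.48 ± 0.17 (adjusted p = 3.59e-05) in passage 24 minus ES and 0.69 ± 0.17 (adjusted p = 0.00911) between passages. Its cEpi minus ES change of -0.65 ± 0.17 was 0.16 under median scaling and 0.29 unscaled.

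Smarca2 was detected on all cEpi arrays, on 2 arrays of passage 4, and on none of ES or passage 24. Its arrays read 10.26, 9.50 and 7.75 on the ES arrays, 11.32, 11.47 and 11.47 on the cEpi arrays, 10.17, 9.76 and 8.30 at passage 4 and 7.99, 8.58 and 7.24 at passage 24. All cEpi arrays lay above all others. It was at least 4.74-fold higher in cEpi than in ES (adjusted p = 0.0127) and at least 11.2-fold higher than at passage 24 (adjusted p = 0.000994). Since only cEpi brought Smarca2 into the test, its excess there is a description, and ES and passage 24, both undetected and overlapping, have no order. The change of -2.00 ± 0.66 (adjusted p = 0.0258) in passage 4 minus cEpi was lost without any 1 of the cEpi arrays or passage 4 replicate 3.

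Smarcc2 read 12.20, 12.31 and 12.60 on the ES arrays, 12.70, 12.73 and 12.84 on the cEpi arrays, 11.80, 12.05 and 11.87 at passage 4 and 10.72, 10.86 and 11.35 at passage 24. The groups did not overlap and fell in the order cEpi, ES, passage 4, passage 24. It was -0.85 ± 0.16 (adjusted p = 0.00137) in passage 4 minus cEpi, -1.78 ± 0.16 (adjusted p = 5.82e-06) in passage 24 minus cEpi, -1.39 ± 0.16 (adjusted p = 4.86e-05) in passage 24 minus ES and -0.93 ± 0.16 (adjusted p = 0.0017) between passages. Its excess in cEpi over ES, 0.39 ± 0.16, was not called (adjusted p = 0.0583). Passage 4 minus ES was -0.47 ± 0.16 but 0.02 under median scaling, and was lost without ES replicate 2 or 3, passage 4 replicate 1 or 3, or cEpi replicate 2.

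**Figure D4:**
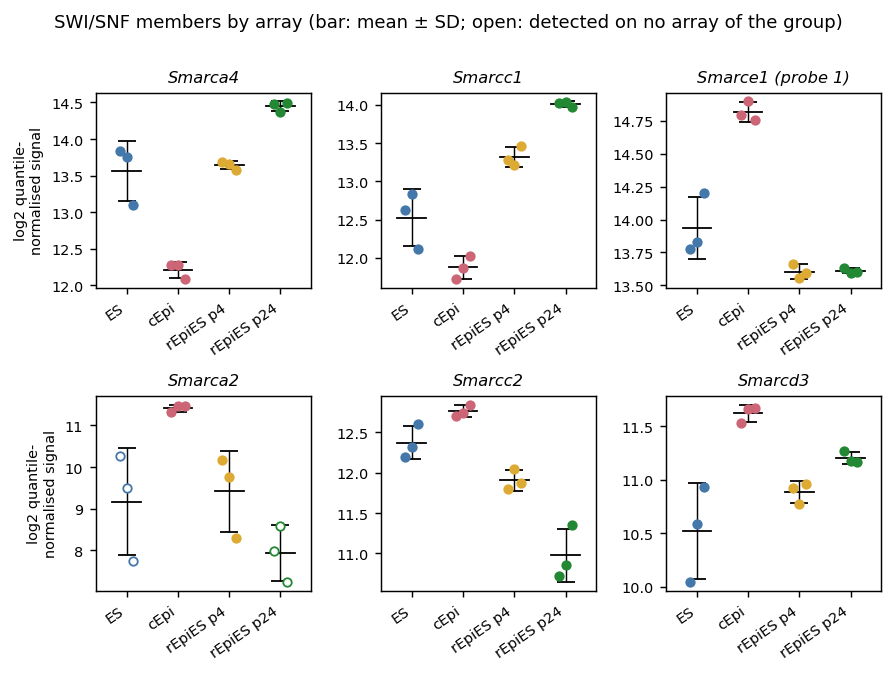
Log2 quantile-normalised signal of 6 SWI/SNF probes on each of the 12 arrays (points, open where no array of the group detected the probe), with mean ± SD of 3 arrays (bars); vertical scales differ between panels. Smarca4 and Smarcc1 are highest at passage 24 (14.37 to 14.49 and 13.98 to 14.04), where Smarcc2 is lowest; Smarca2 is highest in cEpi and went undetected in ES and at passage 24; the cEpi minus ES order of Smarcc1 turned under the other scalings.

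The remaining BAF subunits divided as well. Smarce1 (BAF57, a DNA-binding subunit) was highest in cEpi by probe 507892, at 0.88 ± 0.11 (adjusted p = 4.32e-05) against ES and -1.21 ± 0.11 (adjusted p = 6.57e-06) in passage 4 minus cEpi. Probe 892180 was -0.55 ± 0.16 (adjusted p = 0.0133) in passage 4 minus cEpi and -0.69 ± 0.16 (adjusted p = 0.00382) in passage 24 minus ES, and did not differ by call between cEpi and ES. The first probe's change of -0.33 ± 0.11 in passage 4 minus ES was 0.06 under median scaling and was lost without passage 4 replicate 2 or 3. Its -0.33 ± 0.11 in passage 24 minus ES was 0.12 under median scaling and 0.06 unscaled, and was lost without passage 24 replicate 2 or 3. Smarcd3 (BAF60C, known from heart and neural BAF complexes) was detected on 1 ES array and on all arrays of the other groups. It was 1.10 ± 0.18 (adjusted p = 0.00043) in cEpi minus ES and -0.73 ± 0.18 (adjusted p = 0.00633) in passage 4 minus cEpi. Smarcb1 (BAF47), a core subunit and tumour suppressor, was 0.76 ± 0.15 (adjusted p = 0.00143) in cEpi minus ES and 0.65 ± 0.15 (adjusted p = 0.00439) in passage 24 minus ES.

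The other BAF60 subunits are Smarcd1 and Smarcd2. Smarcd1 was -0.47 ± 0.10 (adjusted p = 0.00339) at passage 4 and -0.71 ± 0.10 (adjusted p = 0.000216) at passage 24 against ES, and its cEpi minus ES change of -0.31 ± 0.10 was 0.35 under median scaling and 0.48 unscaled and was lost without ES replicate 3 or cEpi replicate 2 or 3. Smarcd2 was 0.67 ± 0.06 (adjusted p = 1.24e-05) in passage 4 minus cEpi, 0.38 ± 0.06 in passage 24 minus cEpi and -0.29 ± 0.06 between passages, while -0.51 ± 0.06 in cEpi minus ES was 0.02 and 0.15 under the other scalings. Smarcal1, an annealing helicase outside the BAF complex, was 1.40 ± 0.34 (adjusted p = 0.00582) in passage 24 minus ES.

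Of the ISWI ATPases, Smarca1 (SNF2L) was below ES in every other group on the submitters' values, and in both rEpiES groups under every scaling. It read 13.30, 13.40 and 13.47 on the ES arrays, 12.68, 12.59 and 12.50 on the cEpi arrays, 12.00, 11.89 and 12.18 at passage 4 and 12.38, 12.45 and 12.25 at passage 24. All ES arrays lay above all others, and passage 4 was lowest. It was -1.37 ± 0.09 (adjusted p = 2.07e-06) at passage 4 and -1.03 ± 0.09 (adjusted p = 8.59e-06) at passage 24 against ES, -0.57 ± 0.09 in passage 4 minus cEpi, and -0.80 ± 0.09 in cEpi minus ES, which was 0.10 in the unscaled signal.

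Smarca5 (SNF2H), the ISWI ATPase needed for early embryo growth, gave opposite answers by probe. Probe 661495 was -0.85 ± 0.07 (adjusted p = 2.98e-06) in cEpi minus ES and stayed lower than ES at passage 4 (-0.50 ± 0.07) and passage 24 (-0.49 ± 0.07). Probe 901221 was higher than in ES, by 0.93 ± 0.18 (adjusted p = 0.00188) at passage 4 and 1.75 ± 0.18 (adjusted p = 2.34e-05) at passage 24. Its arrays read 14.11, 14.39 and 13.52 on the ES arrays, 13.70, 13.74 and 13.97 on the cEpi arrays, 14.95, 14.88 and 14.98 at passage 4 and 15.77, 15.68 and 15.82 at passage 24, and the passage 24 arrays lay above all others. The probes shared a rise from cEpi, of 0.36 ± 0.07 and 1.13 ± 0.18 at passage 4, the first of which was -0.04 unscaled. Where in the transcript each probe lies is not given here, so no single level is assigned to the gene.

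Every tested CHD probe was lower in cEpi than in ES, and none changed sign there under the other scalings, which did end the calls of Chd1l and Chd4 probe 298459. All 5 probes of Chd1l, Chd4 and Chd8 were called lower (median -1.42), all 5 were higher at passage 4 than in cEpi (median 1.18), and 4 of 5 were higher at passage 24, on the submitters' values. Chd8, a remodeller that binds beta-catenin, read 14.74, 14.74 and 15.09 on the ES arrays, 12.95, 12.84 and 12.92 on the cEpi arrays, 14.19, 14.03 and 14.25 at passage 4 and 13.84, 13.84 and 13.86 at passage 24. The groups did not overlap, with cEpi lowest and ES highest. It was -1.95 ± 0.10 (adjusted p = 1.22e-07) in cEpi minus ES, 1.25 ± 0.10 (adjusted p = 3.82e-06) in passage 4 minus cEpi and -1.01 ± 0.10 (adjusted p = 1.58e-05) in passage 24 minus ES. Chd1l, a remodeller recruited by poly(ADP-ribose) at DNA damage, was -1.01 ± 0.08 (adjusted p = 1.64e-06) in cEpi minus ES and 0.58 ± 0.08 (adjusted p = 0.00012) in passage 4 minus cEpi.

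Chd4, the ATPase of the NuRD repressor complex, was measured by 3 probes that agreed on the epiblast and differed on the rEpiES cells. Against ES, the cEpi values were -0.95 ± 0.06 (adjusted p = 3.25e-07) (298459), -1.42 ± 0.14 (adjusted p = 9.8e-06) (501536) and -3.24 ± 0.31 (adjusted p = 9.32e-06) (626108). The third probe read 15.58, 15.79 and 14.31 on the ES arrays, 12.04, 11.87 and 12.05 on the cEpi arrays, 14.18, 14.12 and 14.00 at passage 4 and 15.04, 14.98 and 15.23 at passage 24, with the cEpi arrays far below all others and ES replicate 3 apart from the other ES arrays. At passage 4 the first probe stood above ES by 0.23 ± 0.06 (adjusted p = 0.00624) and the others below it by -1.02 ± 0.14 (adjusted p = 0.00016) and -1.13 ± 0.31 (adjusted p = 0.0119). Between passages the first was -0.41 ± 0.06 and the third 0.98 ± 0.31, the latter lost without any 1 of the passage 4, passage 24 or cEpi arrays. The second probe's 0.40 ± 0.14 in passage 4 minus cEpi was -0.02 unscaled, and was lost without any 1 of the passage 4 or cEpi arrays. The first probe's -0.18 ± 0.06 in passage 24 minus ES was 0.27 under median scaling and 0.21 unscaled, and was lost without passage 24 replicate 2.

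Among acetyltransferases, Kat2b and Kat7 rose in rEpiES cells to levels above ES. Of 5 tested Kat members 3 were higher and 2 lower in passage 4 minus cEpi, 4 were higher and none lower in passage 24 minus ES, and 3 were higher and none lower between passages. Kat2b (PCAF), a histone H3 acetyltransferase, read 10.81, 10.37 and 10.88 on the ES arrays, 9.90, 9.82 and 9.95 on the cEpi arrays, 12.40, 12.25 and 12.35 at passage 4 and 13.15, 13.11 and 13.28 at passage 24. No groups overlapped, and they ascended from cEpi through ES and passage 4 to passage 24. It was 2.44 ± 0.12 (adjusted p = 1.8e-07) in passage 4 minus cEpi, 2.49 ± 0.12 (adjusted p = 1.62e-07) in passage 24 minus ES, 0.85 ± 0.12 (adjusted p = 0.000578) between passages and -0.79 ± 0.12 (adjusted p = 0.000295) in cEpi minus ES.

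Kat7 (HBO1), which acetylates histones H3 and H4 and is tied to replication origins, read 11.15, 9.54 and 10.11 on the ES arrays, 13.22, 13.25 and 13.25 on the cEpi arrays, 14.47, 14.43 and 14.36 at passage 4 and 15.01, 15.00 and 15.14 at passage 24. It was detected on no ES array and on all 9 others, and it ascended from ES to cEpi, passage 4 and passage 24 without overlap. Against the ES mean it was at least 7.86-fold higher in cEpi (adjusted p = 1.71e-05), at least 17.8-fold at passage 4 (adjusted p = 3.62e-06) and at least 27.5-fold at passage 24 (adjusted p = 9.32e-07). These folds compare means and are no strict minima, since ES replicate 1 alone read 11.15. Passage 4 exceeded cEpi by 1.18 ± 0.31 (adjusted p = 0.00889). The step between passages, 0.63 ± 0.31, was not called (adjusted p = 0.148). The passages nonetheless did not overlap, with SDs of 0.054 at passage 4 and 0.0809 at passage 24. Their standard error pooled all groups, including the undetected ES arrays, whose SD was 0.8175.

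Kat5 (TIP60), of the TIP60-p400 complex, was 0.97 ± 0.09 (adjusted p = 7.43e-06) in cEpi minus ES, -0.49 ± 0.09 in passage 4 minus cEpi and 0.99 ± 0.09 (adjusted p = 8.96e-06) in passage 24 minus ES. Kat2a (GCN5) was level in ES and cEpi by call and 0.60 ± 0.14 (adjusted p = 0.005) higher at passage 4 than in cEpi. Kat14, a subunit of the ATAC complex, was 0.27 ± 0.06 in cEpi minus ES and -0.52 ± 0.06 (adjusted p = 6.33e-05) in passage 4 minus cEpi. Its -0.25 ± 0.06 in passage 4 minus ES was 0.03 under median scaling, and its 0.19 ± 0.06 between passages was lost on leaving out 8 of the 12 arrays in turn.

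The class II deacetylases Hdac5 and Hdac6 were highest in cEpi. Of 9 tested Hdac members 5 were higher and 2 lower in cEpi minus ES, 2 were higher and 4 lower in passage 4 minus cEpi, and 1 was higher and 4 lower in passage 24 minus cEpi. Hdac6, a mostly cytoplasmic tubulin deacetylase, read 14.23, 14.25 and 14.27 on the ES arrays, 16.08, 16.01 and 15.99 on the cEpi arrays, 14.34, 14.31 and 14.37 at passage 4 and 14.39, 14.48 and 14.34 at passage 24. The cEpi arrays stood alone above the rest. It was 1.78 ± 0.06 (adjusted p = 7.48e-09) in cEpi minus ES, -1.69 ± 0.06 (adjusted p = 1.4e-08) in passage 4 minus cEpi and -1.62 ± 0.06 (adjusted p = 7.83e-09) in passage 24 minus cEpi.

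Hdac5, which shuttles between nucleus and cytoplasm, read 13.65, 13.72 and 13.57 on the ES arrays, 15.19, 15.11 and 15.09 on the cEpi arrays, 14.23, 14.13 and 14.10 at passage 4 and 13.35, 13.30 and 13.37 at passage 24. The 4 groups did not overlap. It was 1.49 ± 0.07 (adjusted p = 4.59e-08) in cEpi minus ES, -0.98 ± 0.07 (adjusted p = 1.13e-06) in passage 4 minus cEpi, -1.79 ± 0.07 (adjusted p = 8.82e-09) in passage 24 minus cEpi and -0.81 ± 0.07 (adjusted p = 1.27e-05) between passages. Passage 24 minus ES was -0.31 ± 0.07 but 0.15 under median scaling and 0.09 unscaled. Hdac4, of the same class, went the other way: it was -1.11 ± 0.16 (adjusted p = 0.00016) in cEpi minus ES, -0.92 ± 0.16 (adjusted p = 0.000811) in passage 4 minus ES and -1.50 ± 0.16 (adjusted p = 2.58e-05) in passage 24 minus ES.

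The class I enzymes Hdac1 and Hdac2, which share the NuRD, Sin3 and CoREST complexes, diverged in rEpiES cells. Hdac1 read 15.79, 15.88 and 15.88 on the ES arrays, 16.32, 16.40 and 16.30 on the cEpi arrays, 16.77, 16.77 and 16.63 at passage 4 and 17.04, 17.04 and 17.10 at passage 24, ascending from ES through cEpi and passage 4 to passage 24 without overlap. It was 0.49 ± 0.06 (adjusted p = 7.31e-05) in cEpi minus ES, 0.87 ± 0.06 (adjusted p = 2.88e-06) in passage 4 minus ES and 1.21 ± 0.06 (adjusted p = 2.05e-07) in passage 24 minus ES, and its 0.38 ± 0.06 in passage 4 minus cEpi was -0.02 unscaled. Hdac2 read 17.32, 17.39 and 17.42 on the ES arrays, 17.27, 17.29 and 17.38 on the cEpi arrays, 16.72, 16.76 and 16.61 at passage 4 and 16.82, 16.87 and 16.91 at passage 24, with all rEpiES arrays below all ES and cEpi arrays. It was -0.62 ± 0.06 (adjusted p = 2.31e-05) in passage 4 minus cEpi and -0.51 ± 0.06 (adjusted p = 8.41e-05) in passage 24 minus ES.

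The other deacetylases changed less or were dim. Hdac3, the enzyme of the NCoR complex, was 0.37 ± 0.10 in cEpi minus ES and -0.32 ± 0.10 in passage 4 minus cEpi, the latter lost without passage 4 replicate 2 or cEpi replicate 1. Hdac10, a polyamine deacetylase, was -0.51 ± 0.08 (adjusted p = 0.000209) in cEpi minus ES, and its -0.30 ± 0.08 in passage 4 minus ES was 0.10 under median scaling and 0.03 unscaled. Its 0.21 ± 0.08 in passage 4 minus cEpi was lost on leaving out 7 of the 12 arrays in turn. Hdac8 was detected on no ES array and was at least 2.3-fold higher at passage 4 (adjusted p = 0.0135) and at least 2.4-fold at passage 24 (adjusted p = 0.0094), the first lost without passage 4 replicate 1. Its cEpi excess of at least 1.88-fold (adjusted p = 0.0383) was lost on leaving out 6 of the 12 arrays in turn, and the 2 groups overlapped. Hdac11 was called in no comparison.

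Of 5 tested sirtuins, the NAD-dependent deacylases, Sirt2 was higher and Sirt1 lower in cEpi minus ES and 3 were not called. Passage 4 minus cEpi had 2 higher and 1 lower, and passage 24 minus cEpi 2 and 2. Sirt1, the nuclear member, read 14.68, 14.63 and 14.46 on the ES arrays, 13.69, 13.59 and 13.61 on the cEpi arrays, 14.68, 14.70 and 14.78 at passage 4 and 14.91, 14.95 and 14.86 at passage 24, and the cEpi arrays lay below all others. It was -0.96 ± 0.07 (adjusted p = 1.54e-06) in cEpi minus ES, 1.09 ± 0.07 (adjusted p = 1.01e-06) in passage 4 minus cEpi and 1.28 ± 0.07 (adjusted p = 1.7e-07) in passage 24 minus cEpi. Sirt2, a mainly cytoplasmic tubulin and histone deacetylase, read 13.68, 13.68 and 13.74 on the ES arrays, 14.45, 14.71 and 14.66 on the cEpi arrays, 14.18, 14.35 and 14.18 at passage 4 and 13.19, 13.27 and 13.39 at passage 24. It ran from cEpi downwards through passage 4 and ES to passage 24 with no overlap, and was 0.91 ± 0.09 (adjusted p = 9.5e-06) in cEpi minus ES, -1.32 ± 0.09 (adjusted p = 5.54e-07) in passage 24 minus cEpi and -0.95 ± 0.09 (adjusted p = 3.02e-05) between passages. Passage 24 minus ES was -0.42 ± 0.09 but 0.03 under median scaling.

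Sirt3, the mitochondrial deacetylase, was 0.57 ± 0.07 (adjusted p = 9.7e-05) in passage 24 minus ES and 0.44 ± 0.07 (adjusted p = 0.00133) between passages. Its 0.20 ± 0.07 in passage 4 minus cEpi was -0.11 under median scaling and -0.32 unscaled and was lost on leaving out 9 of the 12 arrays in turn. Sirt6, which acts at telomeres and on glycolytic genes, was -0.55 ± 0.16 (adjusted p = 0.0171) in passage 4 minus ES and -0.91 ± 0.16 (adjusted p = 0.000914) in passage 24 minus ES. Its -0.51 ± 0.16 in passage 24 minus cEpi was lost without passage 24 replicate 1 or 2 or cEpi replicate 2. Sirt5 was called in no comparison.

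**Figure D5:**
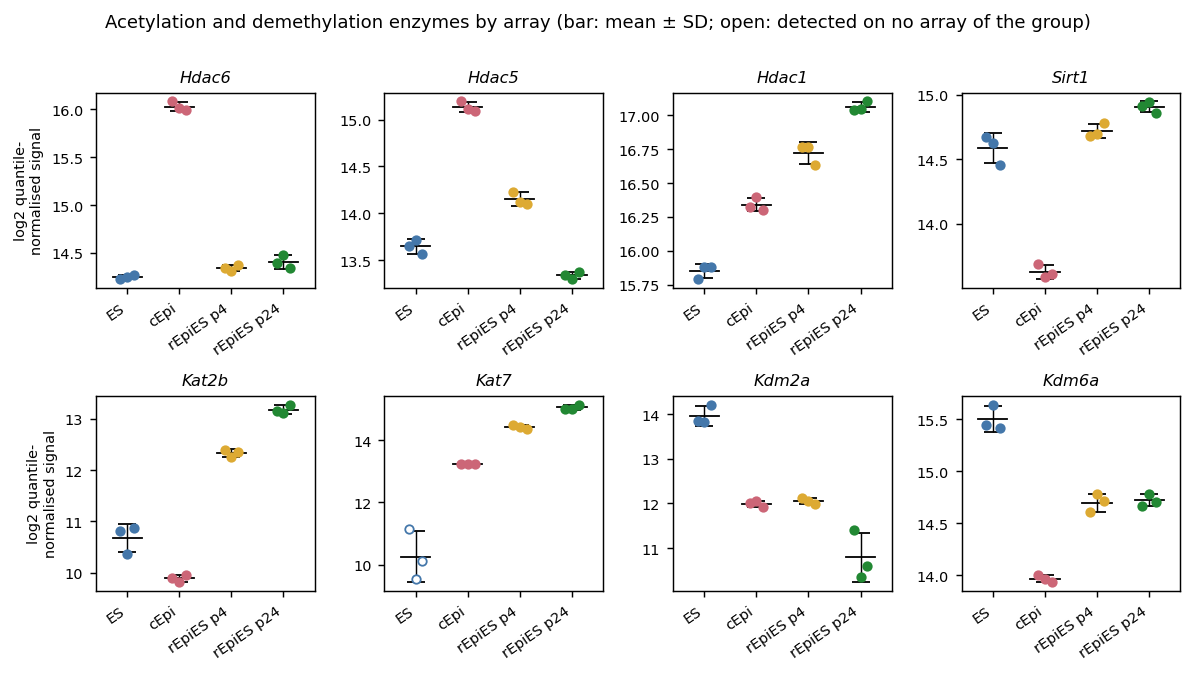
Log2 quantile-normalised signal of 8 acetylation and demethylation enzymes on each of the 12 arrays (points, open where no array of the group detected the probe), with mean ± SD of 3 arrays (bars); vertical scales differ between panels. Hdac6 (15.99 to 16.08) and Hdac5 peak in cEpi, Sirt1 is lowest there, and Kdm2a falls to 10.35 to 11.41 at passage 24. Kat2b and Kat7 read highest at passage 24, Kat7 without a call between passages, although the passages did not overlap.

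Among the lysine demethylases, Kdm2a stood lowest against ES at passage 24, and 2 others were lower than ES in all 3 groups. Of 9 tested Kdm probes 2 were higher and 4 lower in cEpi minus ES, 4 and 2 in passage 4 minus cEpi, 4 and 1 in passage 24 minus cEpi, and 4 and 3 in passage 24 minus ES. Kdm2a, which demethylates lysine 36 and binds CpG islands, read 13.84, 13.81 and 14.21 on the ES arrays, 12.00, 12.05 and 11.92 on the cEpi arrays, 12.12, 12.06 and 11.98 at passage 4 and 11.41, 10.35 and 10.61 at passage 24. ES lay highest, cEpi overlapped passage 4, and passage 24 was lowest and was detected on 2 of its arrays. It was -1.96 ± 0.23 (adjusted p = 3.74e-05) in cEpi, -1.90 ± 0.23 (adjusted p = 7.78e-05) at passage 4 and -3.17 ± 0.23 (adjusted p = 1.84e-06) at passage 24, each against ES, and -1.26 ± 0.23 (adjusted p = 0.00208) between passages.

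Kdm6a (UTX), which removes methyl groups from lysine 27 and so opposes PRC2, read 15.45, 15.64 and 15.42 on the ES arrays, 14.00, 13.96 and 13.94 on the cEpi arrays, 14.60, 14.78 and 14.71 at passage 4 and 14.67, 14.78 and 14.70 at passage 24. The cEpi arrays were lowest, the 2 rEpiES groups overlapped and ES was highest. It was -1.53 ± 0.08 (adjusted p = 1.06e-07) in cEpi minus ES, 0.73 ± 0.08 (adjusted p = 2.6e-05) in passage 4 minus cEpi and -0.78 ± 0.08 (adjusted p = 1.48e-05) in passage 24 minus ES. Kdm1b (LSD2), a lysine 4 demethylase known from the oocyte, was -1.44 ± 0.12 (adjusted p = 3.81e-06) in cEpi minus ES, 0.92 ± 0.12 (adjusted p = 0.000122) in passage 4 minus cEpi, -0.65 ± 0.12 (adjusted p = 0.00258) between passages and -1.16 ± 0.12 (adjusted p = 2.36e-05) in passage 24 minus ES.

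Kdm2b, the CpG-island binder that carries a variant PRC1 complex to unmethylated DNA, was higher at passage 24 than in cEpi and ES by both probes. Probe 655336 was 1.20 ± 0.13 (adjusted p = 1.57e-05) in passage 24 minus cEpi and 1.74 ± 0.13 (adjusted p = 1.79e-06) in passage 24 minus ES, and probe 899707 1.01 ± 0.10 (adjusted p = 7.27e-06) and 0.43 ± 0.10 (adjusted p = 0.00323). The probes were called in opposite directions in cEpi minus ES, 0.54 ± 0.13 and -0.58 ± 0.10, and the second read 0.20 and 0.32 under the other scalings. Their changes between passages, 0.45 ± 0.13 and 0.32 ± 0.10, did not hold in every repeat: the first was lost without passage 4 replicate 2 or 3 or passage 24 replicate 3, and the second without any 1 of the 6 rEpiES arrays. Kdm4b, a lysine 9 demethylase, was -0.77 ± 0.11 (adjusted p = 0.000224) in passage 4 minus cEpi and 0.89 ± 0.11 (adjusted p = 0.000228) between passages. Kdm1a (LSD1), the lysine 4 demethylase of the CoREST complex, was 0.38 ± 0.08 (adjusted p = 0.00133) in passage 24 minus cEpi. Kdm8 was -0.46 ± 0.12 (adjusted p = 0.00807) in passage 4 minus cEpi, and Kdm4a was called in no comparison.

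Outside PRC2, the Kmt, Setd and Ehmt families, grouped by symbol as lysine methyltransferases whatever each member's substrate, had 8 tested members. Of these 1 was higher and 4 lower in cEpi minus ES, 3 were higher and none lower in passage 4 minus cEpi and in passage 24 minus cEpi, and 2 were higher and none lower between passages. Kmt5a (SET8), the lysine 20 monomethyltransferase, was -1.16 ± 0.07 (adjusted p = 3.47e-07) in cEpi minus ES and -0.80 ± 0.07 (adjusted p = 9.59e-06) and -0.64 ± 0.07 (adjusted p = 2.97e-05) at passage 4 and 24 against ES. Its 0.36 ± 0.07 in passage 4 minus cEpi was -0.11 unscaled. Kmt5c, which adds further methyl groups to lysine 20, was 0.84 ± 0.16 (adjusted p = 0.00117), 0.93 ± 0.16 (adjusted p = 0.000842) and 0.95 ± 0.16 (adjusted p = 0.000608) in the same 3 groups against ES.

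Ehmt2 (G9a), the lysine 9 dimethyltransferase, rose between passages. Its arrays read 15.37, 15.26 and 15.46 on the ES arrays, 15.09, 15.00 and 14.88 on the cEpi arrays, 14.78, 14.88 and 14.95 at passage 4 and 15.92, 15.99 and 15.81 at passage 24, and the passage 24 arrays lay above all others. It was 1.04 ± 0.09 (adjusted p = 1.66e-05) between passages, 0.92 ± 0.09 (adjusted p = 7.66e-06) in passage 24 minus cEpi and 0.54 ± 0.09 (adjusted p = 0.000426) in passage 24 minus ES. Its -0.38 ± 0.09 in cEpi minus ES was 0.13 and 0.26 under the other scalings. Setd4 was 0.65 ± 0.06 (adjusted p = 3.5e-05) between passages and 0.93 ± 0.06 (adjusted p = 5.45e-07) in passage 24 minus cEpi. Its -0.54 ± 0.06 in cEpi minus ES was 0.18 and 0.30, its 0.28 ± 0.06 in passage 4 minus cEpi -0.03 and -0.24, and its -0.26 ± 0.06 in passage 4 minus ES 0.14 and 0.07 under the other scalings.

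Setd1a, a lysine 4 methyltransferase, was -0.51 ± 0.15 in cEpi minus ES, but 0.31 and 0.44 under the other scalings, and 0.43 ± 0.15 in passage 4 minus cEpi, but -0.11 unscaled. The first call was lost without cEpi replicate 1 and the second without cEpi replicate 1 or passage 4 replicate 1 or 2. Setd5 was detected on no ES array and was at least 2.46-fold higher at passage 4 (adjusted p = 0.0172), the group through which alone it was tested, a call lost without ES replicate 2 or passage 4 replicate 3. Setd3 and Setd7 were called in no comparison.

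Of 5 tested arginine methyltransferases, Prmt2 rose the most in cEpi. It read 9.06, 10.85 and 10.74 on the ES arrays, 12.89, 12.96 and 13.05 on the cEpi arrays, 11.88, 11.97 and 11.59 at passage 4 and 11.11, 11.47 and 10.67 at passage 24, was detected on 2 ES arrays and 2 passage 24 arrays, and had its cEpi arrays above all others. It was 2.75 ± 0.41 (adjusted p = 0.000221) in cEpi minus ES and -1.89 ± 0.41 (adjusted p = 0.00249) in passage 24 minus cEpi. Its -1.16 ± 0.41 (adjusted p = 0.0369) in passage 4 minus cEpi was lost on leaving out 7 of the 12 arrays in turn. Prmt3, which methylates a ribosomal protein, went the other way, at -1.14 ± 0.07 (adjusted p = 2.83e-07) in cEpi minus ES, 0.95 ± 0.07 (adjusted p = 1.6e-06) in passage 4 minus cEpi and 1.18 ± 0.07 (adjusted p = 1.72e-07) in passage 24 minus cEpi. Its -0.20 ± 0.07 in passage 4 minus ES was 0.05 under median scaling and was lost without ES replicate 3 or passage 4 replicate 2 or 3.

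Prmt1, the main asymmetric arginine methyltransferase, was 0.79 ± 0.10 (adjusted p = 9.47e-05) in passage 24 minus ES and 0.46 ± 0.10 in cEpi minus ES. Its 0.34 ± 0.10 in passage 24 minus cEpi was lost without passage 24 replicate 3, and its 0.35 ± 0.10 between passages without replicate 1 or 2 of passage 4 or replicate 1 or 3 of passage 24. Prmt8, a membrane-bound enzyme known from neurons, was detected at passage 24 and on no other array, so it was tested because of passage 24 and its excess there is a description. It was at least 3.05-fold higher there than in cEpi (adjusted p = 0.00704) and at least 3.34-fold higher than at passage 4 (adjusted p = 0.00967). Its excess over ES, at least 2.16-fold (adjusted p = 0.0445), was lost on leaving out 11 of the 12 arrays in turn, and ES overlapped passage 24. Prmt6 was -1.21 ± 0.39 (adjusted p = 0.023) in passage 4 minus cEpi, a call lost without passage 4 replicate 1 or 3 or cEpi replicate 1 or 3.

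Of the 81 probes 6 could not be tested. Hdac7, Kdm5c and Kdm5d were detected on no array, Kdm4d and Cbx8 on 1 array each, and Kat6b on 1 array each of ES, passage 4 and passage 24. Kdm5c lies on the X and Kdm5d on the Y chromosome. A lack of detection bounds the signal of these probes and does not show that the genes were silent.

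Partner subunits of the same complexes were on balance lower in cEpi than in ES and higher in rEpiES on the submitters' values, a balance that turned for cEpi minus ES under both other scalings. Of 112 further genes of these complexes, 75 had a probe and 69 were tested, each by its brightest probe alone. Of these 14 were higher and 37 lower in cEpi minus ES (median -0.38, beside 0.145 for all tested probes), in passage 4 minus cEpi 42 were higher and 10 lower (median 0.54, beside -0.02), and in passage 24 minus cEpi 42 and 13 (median 0.58, beside 0.01). In the same order, the shares of all tested probes called higher and lower were 36.6% and 29.6%, 28.2% and 28.1%, and 33.3% and 32.9%. In passage 4 minus ES 19 of 69 were higher and 21 lower, beside 29.3% and 26% of all tested probes. In passage 24 minus ES these were 28 and 22, beside 30.6% and 29%, and between passages 21 and 12, beside 17.2% and 18.9%. The partner splits also moved with the scaling: cEpi minus ES had 24 higher and 18 lower under median scaling and 28 and 13 unscaled, passage 4 minus cEpi 27 and 11 and then 14 and 17, and passage 24 minus cEpi 31 and 15 and then 27 and 20. Shares of all tested probes under these scalings are not given, so these splits are no result about the partners.

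The named partner changes were all called. Of the PRC2 partners, Mtf2, a Polycomb-like protein that recruits PRC2 to CpG islands, was -2.53 ± 0.07 in cEpi minus ES and 1.82 ± 0.07 in passage 4 minus cEpi. Epop, which tempers PRC2 in ES cells, was 3.04 in passage 4 minus cEpi and 2.64 in passage 24 minus cEpi. Of the corepressor scaffolds that carry Hdac1 and Hdac2, Sin3a was -2.26 and the NuRD subunit Gatad2b -1.81 in cEpi minus ES. The largest rises there were Pcgf3 (2.19), a variant PRC1 subunit, Nsd3 (1.26), a lysine 36 methyltransferase, and the histone chaperone Rbbp7 (1.10). The variant PRC1 subunits E2f6 (-1.33) and Pcgf5 (-1.0005) and the SAGA subunit Tada1 (-0.96) were lowest in passage 4 minus cEpi, and Ing5 (1.80) was among the highest.

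In passage 24 minus cEpi the largest called rises besides Epop were Mga (3.01), a variant PRC1 subunit detected on 1 cEpi array and fully at passage 24 alone, and Uhrf1 (2.17), which guides maintenance of DNA methylation, and the largest falls were E2f6 (-1.61), Tada1 (-1.36) and the COMPASS partner Ncoa6 (-1.33). Against ES, passage 4 was highest for Pcgf3 (2.62), Epop (1.79) and Tada3 (1.78) and lowest for the PBAF subunit Arid2 (-1.32), Pcgf6 (-1.17) and Tada1 (-0.97). Passage 24 against ES was highest for Pcgf3 (2.72, with 1 ES array detected) and Uhrf1 (2.59), with Mga, detected on no ES array, at least 5.29-fold higher, and was lowest for Pcgf2 (-2.19), Arid2 (-1.86) and Tada1 (-1.37). Between passages Uhrf1 rose by 1.42, and Mga and the BAF subunit Dpf1, neither detected on a passage 4 array, were at least 4.3-fold and at least 2.12-fold higher at passage 24, the group that brought both into the test. The largest falls called between passages were Pcgf2 (-1.72), Ncoa6 (-0.57) and Arid2 (-0.54).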

How the data were processed

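Total RNA of each sample was hybridised to an Applied Biosystems AB1700 one-colour array of 33012 probes. Per the file headers, the authors deposited for each probe a linear signal intensity, a signal-to-noise score, quality codes, and a quantile-normalised column whose values lie on a log2 scale. No source used here names the scanner software or the background correction. The deposited log2 values were used as they stand; same-rank values differed by at most 0.0284 between arrays. In the cEpi and passage 4 files the headers of score and code are exchanged relative to the contents, so columns were read by content.

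Gene names came from the platform annotation (14411 probes with 1 symbol, 247 with several, 18354 with none here). A probe was detected at a signal-to-noise score of 3 or more and tested if every array of 1 group or more detected it. All 15235 such probes entered 1 limma fit (version 3.58.1, R 4.3.3, lmFit and eBayes, two-sided, 8 residual degrees of freedom), and Benjamini-Hochberg adjusted p-values under 0.05 were called. The code was checked on simulated arrays. Where no array of the dimmer group detected a probe, the fold is a bound against the higher of its own signal and the lowest detected signal per array. It rests on group means and is no strict minimum.

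Named with values are all tested Polycomb and HP1 members, the up to 3 largest called changes per direction in each other family and comparison, probes called in opposite directions, and members called in all comparisons with cEpi. Partner and marker genes were each represented by the probe with the highest mean signal over all arrays. Members, lists and rules were chosen with earlier results of these data known. The alternatives were median scaling and no scaling of the deposited intensity, other detection filters, 2-group fits, array weights, a replicate block, leaving out values by quality code, the brightest probe per gene, and leaving out each array. The number of arrays limits the precision. Promoter sequences came from RefSeq windows (GRCm38.p6), which matched 68 of the 75 genes.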

Additional observations from a re-analysis of the deposited data

How the results depend on the processing

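The scaling of the arrays changed more calls than any other choice tried. Called members, higher and lower, became 35 and 18 under median scaling and 37 and 14 unscaled in cEpi minus ES. They became 19 and 23, then 14 and 26, in passage 4 minus cEpi, and 20 higher in the unscaled passage 24 minus cEpi. They became 30 and 10, then 22 and 11, in passage 4 minus ES, and 34 and 12, then 32 and 12, in passage 24 minus ES. Between passages they became 16 and 6 under median scaling, 11 and 5 unscaled, 13 and 6 without a detection filter, and 34 and 17 with array weights. All these counts stand without the share of all tested probes called in the same setting. Of 297 named changes, 162 kept direction and call in every alternative in which they were fitted (Prmt1 against ES could not be fitted with values of quality code above 1 left out), and 265 never changed sign. Restricting the fit to probes detected on all 12 arrays covered only 251 of the 297, so the dimmer probes were not put to that alternative. Sign changes arose under the 2 scalings and under no other alternative run: 24 under median scaling and 27 unscaled. Under median scaling, Cbx3 in cEpi minus ES became 0.30, Cbx5 0.17, Ehmt2 0.13, Kdm2b probe 2 0.20, Setd1a 0.31, Setd4 0.18, Smarcc1 0.16, Smarcd1 0.35, Smarcd2 0.02 and Suz12 0.19. Unscaled, Cbx3 there became 0.43, Cbx5 0.29, Ehmt2 0.26, Kdm2b probe 2 0.32, Setd1a 0.44, Setd4 0.30, Smarca1 0.10, Smarcc1 0.29, Smarcd1 0.48, Smarcd2 0.15 and Suz12 0.32. Median scaling moved passage 4 minus cEpi too: Cbx6 became -0.011, Rnf2 -0.084, Setd4 -0.033 and Sirt3 -0.11. The unscaled values there were Cbx3 -0.050, Cbx5 -0.030, Cbx6 -0.21, Chd4 probe 2 -0.019, Hdac1 -0.025, Kmt5a -0.11, Rnf2 -0.29, Setd1a -0.11, Setd4 -0.24, Sirt3 -0.32 and Smarca5 probe 1 -0.036. For passage 4 minus ES under median scaling, Hdac10 became 0.10, Kat14 0.032, Prmt3 0.053, Setd4 0.14, Smarcc2 0.017 and Smarce1 probe 1 0.062. For the same comparison unscaled, Hdac10 became 0.026 and Setd4 0.068. For passage 24 minus ES under median scaling, Chd4 probe 1 became 0.27, Hdac5 0.15, Sirt2 0.031 and Smarce1 probe 1 0.12. With no scaling of that comparison, Chd4 probe 1 became 0.21, Hdac5 0.086 and Smarce1 probe 1 0.055. Except for Cbx3 in cEpi minus ES, none of these turned values was itself called. The cause was not tested.

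Leaving out each array in turn gave 19 to 24 members higher and 32 to 35 lower in cEpi minus ES, 28 to 35 and 17 to 23 in passage 4 minus cEpi, and 33 to 37 and 18 to 23 in passage 24 minus cEpi. It gave 17 to 22 and 24 to 29 in passage 4 minus ES, 26 to 31 and 24 to 29 in passage 24 minus ES, 14 to 30 and 7 to 15 between passages, and 64 to 70 members differing among the groups. The reported 22 between passages moved by over 1.5 times without passage 4 replicate 2, to 14. Same-numbered arrays of different groups did not deviate together: 18 correlations ran from -0.0346 to 0.0373. With 3 arrays a group this cannot show whether same-numbered arrays share a line, which the labels do not give. With the replicate number as a block the calls were 22 and 33 in cEpi minus ES, 34 and 23 in passage 4 minus cEpi, 36 and 20 in passage 24 minus cEpi, 18 and 26 in passage 4 minus ES, 29 and 29 in passage 24 minus ES, 22 and 12 between passages, and 69 over all groups. With 3 arrays a group, the unequal spread of ES (array weights 0.175 to 0.37, against 0.666 or more elsewhere) limits the comparisons with ES. It also entered the standard errors of comparisons without ES, because the fit pooled the spread over all groups.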
